A study of Rattus norvegicus with 47 samples.

Results

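Transcripts of 4 genes of the serotonin system were followed in the prefrontal cortex of rats on postnatal day 1, after exposure once daily during gestation to flame retardants. The genes are Htr1a (ENSRNOG00000010254), Htr2a (ENSRNOG00000010063) and Htr2c (ENSRNOG00000030877), which encode receptors, and Slc6a4 (ENSRNOG00000003476), which encodes the serotonin transporter. They were chosen by Ensembl ID, and all 4 IDs were found among the 32883 in the count table. All 4 passed the filter on low counts, which kept 17135 IDs. The 47 libraries came from whole pieces of tissue. They fell into 8 groups of 6, apart from 5 OPFR females. BFR groups received 1000 µg of the brominated compounds EH-TBB and BEH-TEBP. OPFR groups received 1000 µg of triphenyl phosphate with isopropylated triphenyl phosphate. FM550 groups received 2000 µg of FM550, the commercial mixture that holds both kinds of compound, so its dose was not that of the other exposures. Control groups carry only that word in the labels. Of strain, vehicle and litter nothing is said in the sources used here. The p-values below therefore measure the spread between these samples, which may share a litter.

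Serotonin is made by neurons of the raphe nuclei in the brainstem, whose axons reach the cortex before birth. Htr1a encodes the 5-HT1A receptor, which couples to inhibitory G proteins and lowers the firing of the cells that carry it. Htr2a and Htr2c encode 5-HT2A and 5-HT2C, closely related receptors that act through Gq and phospholipase C. 5-HT2A is known from pyramidal neurons of the cortex. 5-HT2C is known from neurons and, at a high level, from the epithelium of the choroid plexus. Slc6a4 encodes the transporter that takes serotonin back up. Adult raphe neurons are its main site, and around birth some glutamatergic neurons of the thalamus and cortex also express it for a time.

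None of the 4 genes was called as different from controls in either sex after any exposure, though the intervals given below leave room for changes, widest for Slc6a4. A gene was called here at a Benjamini-Hochberg adjusted p below 0.05, adjusted over all 17135 genes tested by edgeR's quasi-likelihood test. Of 68 tests of a member, over 17 comparisons, 0 were called, with 7 at an unadjusted p under 0.05 and a lowest adjusted p of 0.0918. Those 7, of which 6 are for Htr2a and 1 for Slc6a4, fall in comparisons where 8.32% to 28.3% of all genes reached such a p. DESeq2 called 1 of the same 68 tests and limma voom 1, both for Htr2a between sets of control libraries. Those sets came from earlier work on these data. In the 24 pairings of an exposed group with the controls of its sex, the CPM values (counts of a gene relative to the total of its library, on library sizes scaled by TMM) overlapped in 24. This was usual in the table: groups without overlap were seen for 0.123% (BFR), 2.22% (OPFR) and 0.169% (FM550) of all genes in females and for 1.69%, 3.24% and 2.47% in males. A lower transcript level in such tissue can mean fewer cells of a type or less RNA per cell, and the data cannot tell these apart.

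These counts have to be read against the whole table, where the share of genes called ran from 0 to 19.3%. Against the controls of their own sex, the share was 0% in BFR females, 3.10% in OPFR females and 0% in FM550 females. It was 9.95% in BFR males, 12.5% in OPFR males and 11.8% in FM550 males. The groups at 0% had 7.85% (BFR females) and 5.41% (FM550 females) of genes at an unadjusted p under 0.05. In them 2 and 22 genes passed in DESeq2, and 0 in limma voom. Controls numbered 1 to 7 in the sample titles were 5 of the 6 males and 2 of the 6 females. Earlier work on these data, not shown here, found them to stand apart from other libraries. Between them and the other 5 controls, 15.2% of all genes were called. As the split came from these same data, that share and the p-values for it cannot be taken at face value. Controls 1 to 7 are shown apart below, and each comparison was also fitted with a term for them. With that term the share was 1.42% in OPFR females and 0% in the other exposed groups of each sex, where 1.13% to 5.61% of genes had an unadjusted p under 0.05. OPFR libraries numbered 31 to 35, and among them OPFR females 4 and 5, were also looked at apart, likewise from earlier work. Libraries held 41075607 to 73418710 counted reads. The tissue label could not be checked against marker genes, because the table does not pair its IDs with names.

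**Figure D1:**
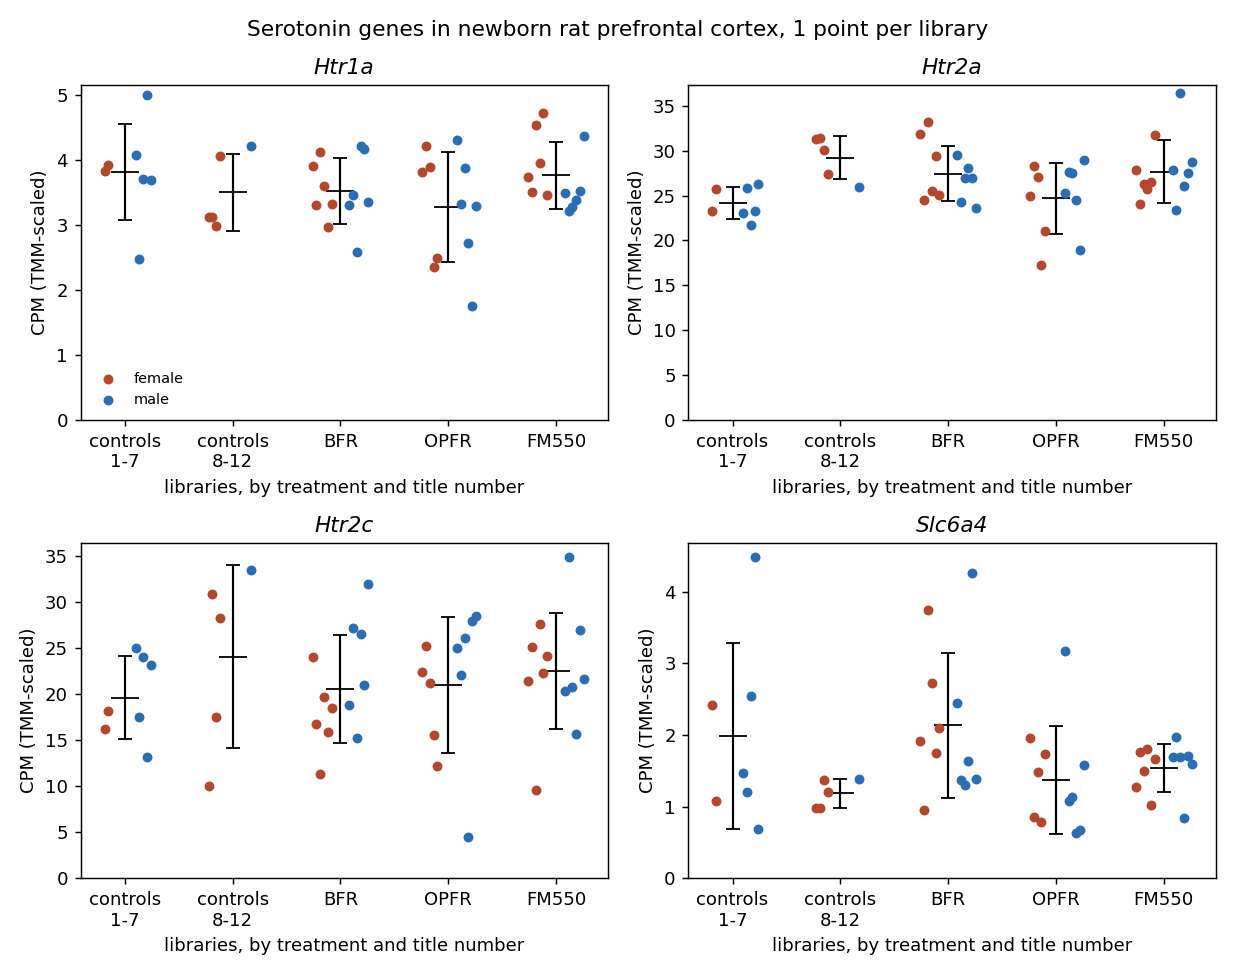
Level of each gene in CPM on TMM-scaled library sizes, 1 point per library, females in red and males in blue. The horizontal mark and bars give the mean and SD of each set over both sexes. Htr2a values of controls 1 to 7 (21.7 to 26.3 CPM) lie mostly below those of controls 8 to 12 (26.0 to 31.4 CPM), and Htr2c and Slc6a4 spread widely within every exposed set except Slc6a4 in FM550.

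Htr1a, the gene of the inhibitory 5-HT1A receptor, was detected in every library, with 110 to 301 reads. Controls 1 to 7 held 2.48 to 4.99 CPM with a median of 3.83. Controls 8 to 12 held 3.12, 3.12, 2.98 and 4.07 CPM in females and 4.22 CPM in the 1 male. The 2 sets of controls overlapped, with a log2 difference of 0.08 ± 0.18 (SE; edgeR adjusted p = 0.819), where 15.2% of all genes were called.

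The Htr1a values of exposed libraries overlapped those of both control sets. BFR libraries held 2.58 to 4.22 CPM (median 3.41), OPFR libraries 1.75 to 4.31 CPM (median 3.32) and FM550 libraries 3.22 to 4.72 CPM (median 3.51). The highest group mean was 3.99 ± 0.53 CPM in FM550 females (SD, n = 6) and the lowest 3.21 ± 0.90 CPM in OPFR males (SD, n = 6). In the order of the 8 group means, neighbours, which are by construction the closest pairs, differed by less than the larger of their SDs for this gene and the other 3. The 6 log2 fold changes against the controls of the same sex ran from -0.27 (OPFR males) to 0.18 (FM550 females). Their 95% intervals lay within 0.662-fold and 1.42-fold, and each interval included no change.

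The low Htr1a values of the OPFR group sat in its later numbers. OPFR libraries 25 to 30 held 3.32 to 4.31 CPM (median 3.89), and libraries 31 to 35 held 1.75 to 3.29 CPM (median 2.49). The 2 sets did not overlap. Of all genes tested, 2.52% were likewise above in every one of libraries 25 to 30. The split was known from earlier work and cuts across the sexes, so it was given no test. Leaving out libraries 31 to 35 moved the log2 fold change of OPFR males from -0.27 ± 0.16 to -0.02 ± 0.16 (SE) and that of OPFR females from -0.07 ± 0.17 to 0.17 ± 0.16.

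**Figure D2:**
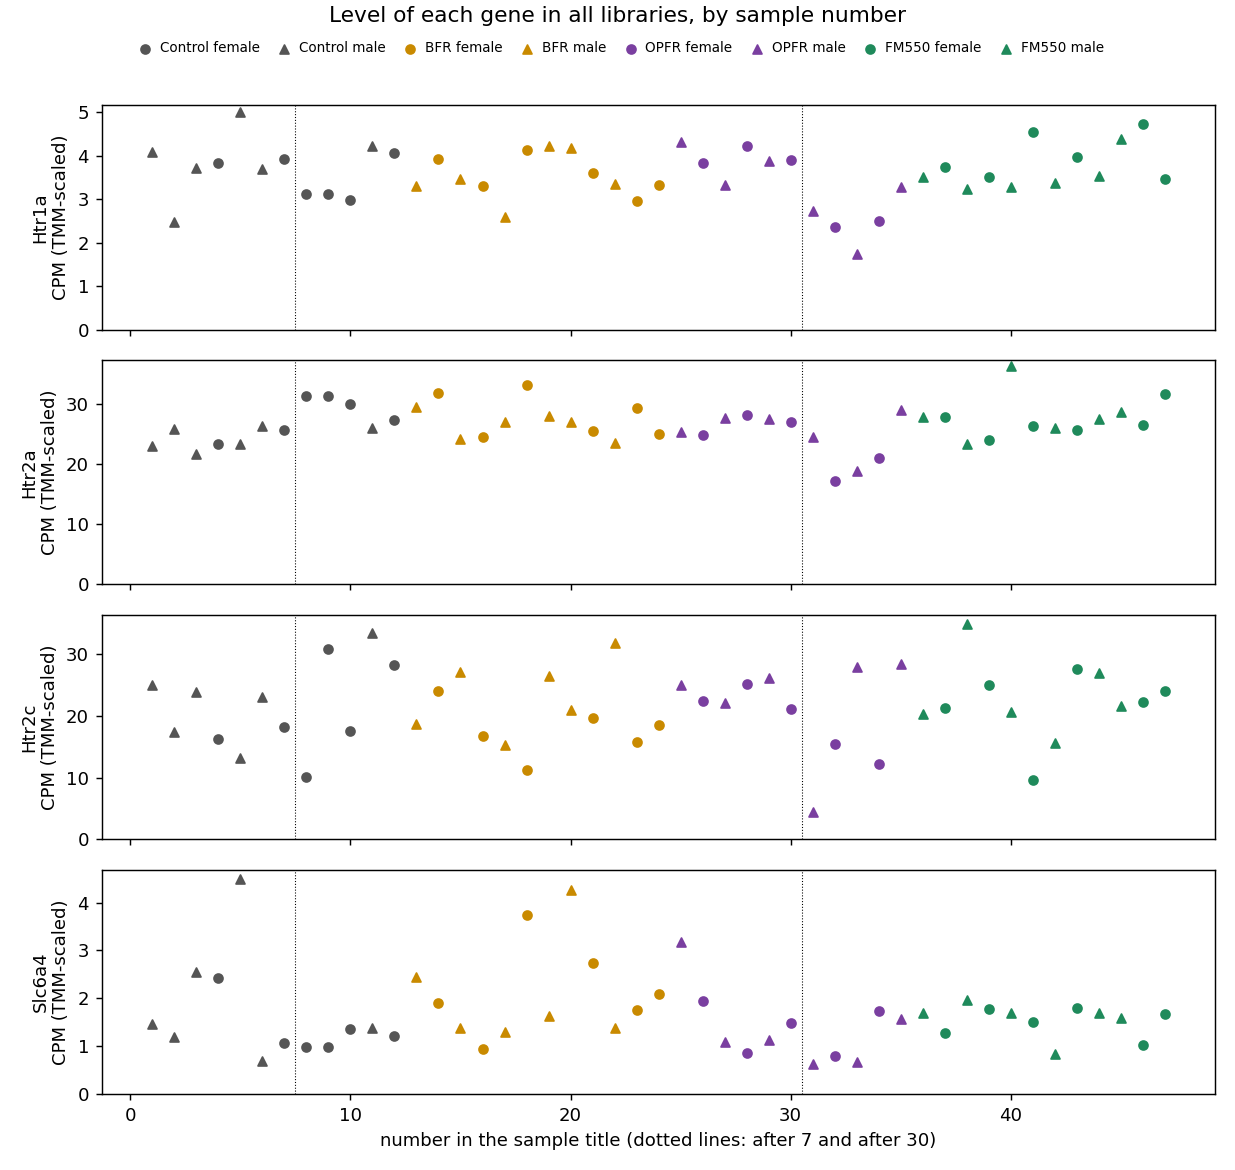
Level of each gene in CPM on TMM-scaled library sizes (vertical axes) in all 47 libraries, by the number in the sample title (horizontal axis). Colours mark the treatment, circles females and triangles males, and dotted lines follow numbers 7 and 30. Htr1a is at 1.75 to 3.29 CPM in OPFR libraries 31 to 35 and at 3.32 CPM or more in OPFR libraries 25 to 30.

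Htr2a, the gene of the Gq-coupled 5-HT2A receptor, varied least of the 4 between libraries. Reads per library ranged from 1035 to 2399. Controls 1 to 7 held 21.7 to 26.3 CPM with a median of 23.3. Controls 8 to 12 held 31.3, 31.4, 30.0 and 27.4 CPM in females and 26.0 CPM in the male. All but 1 of the 7 earlier controls lay below the lowest of the later ones, and the ranges overlapped at that 1 library. With sex in the model the log2 difference was -0.22 ± 0.08 (SE; edgeR adjusted p = 0.0918). It was below the threshold in DESeq2 (adjusted p = 0.0406), in limma voom (adjusted p = 0.0286), and in edgeR without Control male 2 or Control male 5 (adjusted p = 0.0328 and 0.0436). The split was chosen from earlier work on these data, so none of these p-values can be taken at face value. Control females had means of 24.5 CPM in numbers 1 to 7 (n = 2) and 30.0 CPM in numbers 8 to 12 (n = 4). Of the 6 control males 5 carry numbers 1 to 7, at 21.7 to 26.3 CPM. The 1 later male, at 26.0 CPM, lay within that range. The gap was thus seen mainly in females, and comparisons in males have to be read beside it.

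In females, the group mean of Htr2a was lowest with OPFR, at 23.7 ± 4.5 CPM (SD, n = 5). Control females held 23.3 to 31.4 CPM (median 28.7), BFR females 24.5 to 33.2 CPM (median 27.5) and FM550 females 24.0 to 31.7 CPM (median 26.4). OPFR females held 24.9, 28.3, 27.1, 17.3 and 21.0 CPM in the order of their numbers, so the 2 lowest were OPFR females 4 and 5 and the groups overlapped. The log2 fold change of OPFR females was -0.25 ± 0.11 (SE; unadjusted p = 0.0289, edgeR adjusted p = 0.201), and -0.32 ± 0.11 with the term for controls 1 to 7 (edgeR adjusted p = 0.153). Without OPFR females 4 and 5 it was -0.08 ± 0.12. BFR and FM550 females had log2 fold changes of 0.00 ± 0.10 and -0.06 ± 0.11.

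In males, Htr2a values of every exposure reached above those of the controls, and all 3 groups overlapped with them. Control males held 21.7 to 26.3 CPM (median 24.6), BFR males 23.6 to 29.5 CPM (median 27.0), OPFR males 18.9 to 29.0 CPM (median 26.4) and FM550 males 23.4 to 36.4 CPM (median 27.7). The FM550 difference was 0.22 ± 0.10 on the log2 scale (SE; unadjusted p = 0.0445, edgeR adjusted p = 0.180), and 0.03 ± 0.14 with the term for controls 1 to 7. The BFR difference was 0.13 ± 0.10 pooled and -0.06 ± 0.14 with the term, and the OPFR difference was 0.06 ± 0.11 and -0.12 ± 0.14. All 3 values were therefore above 0 with the controls pooled, and only FM550 was with the term. The term assumes the same shift of controls 1 to 7 in both sexes. Leaving these controls out, with 1 control male remaining, gave 0.04 for BFR, -0.03 for OPFR and 0.12 for FM550. The signs for BFR and OPFR males thus depended on how these controls were handled. The 95% intervals of the 6 comparisons with pooled controls lay within 0.721-fold and 1.35-fold.

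Htr2c, the gene of the related 5-HT2C receptor, had a larger coefficient of variation than Htr2a in each of the 8 groups, 23.9% to 40.5% against 7.91% to 19.1%. Reads per library ranged from 265 to 2561. Controls 1 to 7 held 13.1 to 25.0 CPM with a median of 18.2. Controls 8 to 12 held 10.0, 30.8, 17.5 and 28.3 CPM in females and 33.5 CPM in the male, and so took in the whole range of the first 7. BFR libraries held 11.3 to 31.9 CPM (median 19.2), OPFR libraries 4.48 to 28.5 CPM (median 22.4) and FM550 libraries 9.58 to 34.8 CPM (median 21.9). Each set thus had libraries at a low and at a high level, and the lowest of all was OPFR male 4, at 4.48 CPM.

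Group means of Htr2c lay between 17.7 ± 4.2 CPM in BFR females and 23.4 ± 6.2 CPM in BFR males (SD, n = 6 each). The largest SD of a group was 9.05 CPM, in OPFR males. The 6 log2 fold changes against controls ran from -0.19 ± 0.29 (BFR females) to 0.10 ± 0.29 (FM550 females). With the term for controls 1 to 7 all 6 were below 0, from -0.05 to -0.40, each with an interval that included 0. These 6 values share the same shift of the controls and are not separate results. Among controls alone, the log2 difference of numbers 1 to 7 from the others was -0.47 ± 0.27 (SE). The 1 control male outside numbers 1 to 7 held 33.5 CPM, the second highest value of all libraries. The pooled 95% intervals reached from 0.588-fold to 1.60-fold, so a change of moderate size could not have been told from the spread. edgeR's gene-wise biological coefficient of variation for Htr2c was 0.340, which is 2.38 times the trend for genes of its count level (0.143). Counting alone would give 2.89% at its median count of 1201.

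Slc6a4, the transporter gene, had the fewest reads, 37 to 239 per library. Counting alone gives a coefficient of variation of 10.7% at the median of 87 reads. Controls 1 to 7 held 0.684 to 4.49 CPM with a median of 1.47. Controls 8 to 12 held 0.979, 0.979, 1.37 and 1.21 CPM in females and 1.38 CPM in the male. The later controls were thus tightly grouped and the first 7 were not. The highest library of all was Control male 4, at 4.49 CPM, followed by BFR male 5 (4.27), BFR female 3 (3.75) and OPFR male 1 (3.18). Apart from these, no library was above 2.73 CPM.

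BFR gave the highest group means of Slc6a4, at 2.20 ± 0.95 CPM in females and 2.07 ± 1.16 CPM in males (SD, n = 6 each). Control females had the lowest, 1.34 ± 0.55 CPM (SD, n = 6). BFR females held 0.950 to 3.75 CPM (median 2.00) and control females 0.979 to 2.42 CPM (median 1.14), with 5 of 6 BFR females above the control median. The log2 fold change was 0.71 ± 0.37 (SE; edgeR adjusted p = 0.629), and 0.94 ± 0.40 with the term for controls 1 to 7 (unadjusted p = 0.0235, edgeR adjusted p = 1.00). Control males held 0.684 to 4.49 CPM (median 1.43) and BFR males 1.30 to 4.27 CPM (median 1.51), a log2 fold change of 0.08 ± 0.37.

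Slc6a4 values of OPFR and FM550 rats lay within those of controls 1 to 7 (0.684 to 4.49 CPM) or near them. Controls 8 to 12, of which 4 are females and 1 is a male, spanned only 0.979 to 1.38 CPM. Of 12 FM550 libraries, 9 lay above that narrower range and 1 below it. Of 11 OPFR libraries, 5 lay above it and 4 below, and of 12 BFR libraries 8 lay above it and 1 below. OPFR females held 1.96, 0.854, 1.48, 0.790 and 1.73 CPM, OPFR males 0.63 to 3.18 CPM (median 1.11), FM550 females 1.03 to 1.80 CPM (median 1.58) and FM550 males 0.836 to 1.97 CPM (median 1.69). OPFR males had a log2 fold change of -0.52 ± 0.37 against controls (edgeR adjusted p = 0.389). With the term it was -0.00085 ± 0.55. FM550 males had -0.31 ± 0.37, and 0.21 ± 0.51 with the term. In FM550 males the sign of this uncalled difference therefore changed with the treatment of controls 1 to 7, among which is Control male 4. Single libraries moved all 3 values in males. The BFR value ran from -0.27 without BFR male 5 to 0.51 without Control male 4. The OPFR value ran from -0.94 without OPFR male 1 to -0.09 without Control male 4. The FM550 value ran from -0.48 without Control male 5 to 0.12 without Control male 4. The pooled 95% intervals of the 6 comparisons reached from 0.415-fold to 2.75-fold, the widest of the 4 genes.

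**Figure D3:**
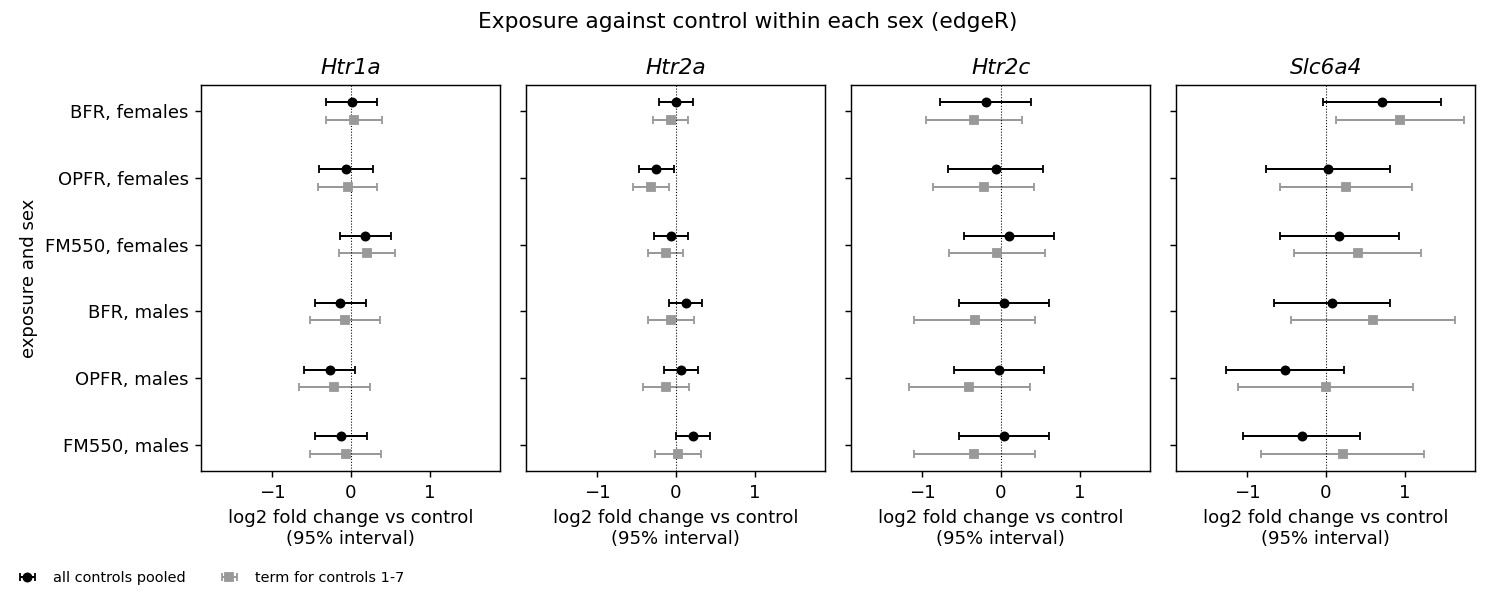
Log2 fold change of each gene against the controls of the same sex (horizontal axes) for each exposure and sex (rows), with 95% intervals from the edgeR fit of 47 libraries. Black circles use all controls, and grey squares add a term for controls 1 to 7. Only for Htr2a in OPFR females and FM550 males (black), and for Htr2a in OPFR females and Slc6a4 in BFR females (grey), does an interval leave 0 out, and none of these differences passed adjustment over all genes.

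Averaged over both sexes, the 4 genes were not called for any exposure, against 12.4% of all genes for BFR, 19.3% for OPFR and 8.13% for FM550. When the term for controls 1 to 7 was added these shares were 0%, 0.525% and 0%. An unadjusted p under 0.05 was then reached by 2.68% of genes for BFR, 10.8% for OPFR and 4.44% for FM550, and again no member was called. Htr1a had log2 fold changes of -0.06 ± 0.11, -0.17 ± 0.12 and 0.03 ± 0.11 for BFR, OPFR and FM550 (SE). Htr2a had 0.06 ± 0.07, -0.09 ± 0.08 and 0.08 ± 0.07. Every one of these 6 values had a 95% interval that included 0. Slc6a4 had 0.39 ± 0.26 for BFR, -0.25 ± 0.27 for OPFR and -0.07 ± 0.26 for FM550. Htr2c had -0.07 ± 0.20, -0.04 ± 0.21 and 0.07 ± 0.20. With the term, Slc6a4 had 0.77 ± 0.37 for BFR (unadjusted p = 0.0458, edgeR adjusted p = 0.999) and Htr2a -0.22 ± 0.10 for OPFR (unadjusted p = 0.0355, edgeR adjusted p = 0.425).

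The study's title speaks of effects specific to a sex, and this was tested as an interaction of sex with each exposure. No member was called in any of the 3, nor was any other gene (0%). An unadjusted p under 0.05 was reached by 3.77% of genes for BFR, 8.32% for OPFR and 9.10% for FM550. The numbers of genes passing in DESeq2 were 3, 0 and 1 in that order and in limma voom 0, 206 and 353, no member among them. Htr2a had the smallest unadjusted p, for sex by OPFR: its change in females was lower than that in males by 0.31 ± 0.15 on the log2 scale, which is a log2 interaction of -0.31 (unadjusted p = 0.0455, edgeR adjusted p = 0.597). With the term for controls 1 to 7 this was -0.20 ± 0.16, without OPFR females 4 and 5 it was -0.14 ± 0.15, and without OPFR libraries 31 to 35 it was -0.21 ± 0.15. The interactions of Slc6a4 ran from 0.48 to 0.63, with SEs of 0.52 to 0.54, and those of Htr1a from 0.15 to 0.31, with SEs of about 0.23.

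Comparing the exposed groups with each other leaves the control libraries out of the difference. Slc6a4 held 0.63 to 3.18 CPM in the 11 OPFR libraries (median 1.14) and 0.950 to 4.27 CPM in the 12 BFR libraries (median 1.83), at equal doses by mass. Averaged over the sexes the log2 difference was -0.64 ± 0.27 (SE; unadjusted p = 0.0216, edgeR adjusted p = 0.152), where 4.75% of all genes were called. Leaving out OPFR male 1, which held 3.18 CPM, made it -0.85 ± 0.26 (edgeR adjusted p = 0.0370). Leaving out OPFR libraries 31 to 35 made it -0.43 (edgeR adjusted p = 0.549). The adjusted p over the 32 alternatives for this difference ran from 0.0370 to 0.549.

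For Htr2a the log2 difference of OPFR from BFR was -0.16 ± 0.08 (unadjusted p = 0.0453, edgeR adjusted p = 0.216). That of FM550 from OPFR was 0.17 ± 0.08 (unadjusted p = 0.0302, edgeR adjusted p = 0.235), where 0.00584% of all genes were called and the doses differed. An unadjusted p under 0.05 was reached by 22.1% of all genes in OPFR against BFR and by 17.9% in FM550 against OPFR. Without OPFR libraries 31 to 35 the 2 values were -0.04 ± 0.08 and 0.05 ± 0.08. FM550 against BFR had 0.204% of genes called, and the members' log2 differences there were 0.09 ± 0.11 for Htr1a, 0.01 ± 0.07 for Htr2a, 0.15 ± 0.20 for Htr2c and -0.46 ± 0.26 for Slc6a4.

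Between the sexes, over all treatments, 0.128% of genes were called and no member was among them. Htr2c, which lies on the X chromosome, held 9.58 to 30.8 CPM in the 23 females (median 19.7) and 4.48 to 34.8 CPM in the 24 males (median 23.5). Its log2 difference, females against males, was -0.22 ± 0.14 (SE; edgeR adjusted p = 0.999), with a 95% interval from -0.51 to 0.07. Htr1a had 0.03 ± 0.08, Htr2a 0.03 ± 0.05 and Slc6a4 -0.13 ± 0.19.

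The 4 genes differed in how much they varied once group means were set aside. Htr1a and Htr2a had biological coefficients of variation of 0.190 and 0.128, at 0.702 and 0.932 times the trend for their count level. Slc6a4 had 0.432, at 1.33 times its trend, and Htr2c 2.38 times its own. Deviations of log2 CPM from the group means (controls 1 to 7 taken as sets of their own) were then compared for the 6 pairs of members over 47 libraries. The permutations shuffled the deviations freely over all libraries, although they are centred within each set. Control male 6, alone in its set, has no deviation of its own, and the OPFR libraries 31 to 35 were not centred apart. The permutation p-values may therefore be too small. Htr1a and Slc6a4 had a Pearson r of 0.44 (permutation p = 0.00173, 0.0104 adjusted over 6 pairs) and a Spearman rho of 0.33 (permutation p = 0.0233, adjusted 0.117). Leaving out the 2 libraries farthest from the median of Htr1a gave r = 0.39, and leaving out controls 1 to 7 and OPFR libraries 31 to 35 gave r = 0.29 over 35 libraries. Of 17134 other genes, 2017 had r above 0.5 with Htr1a and 153 with Slc6a4 over 47 libraries. An r of this size was thus common in the table with Htr1a. With Slc6a4 far fewer genes were above 0.5, and genes at the r of this pair were not counted.

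Htr1a and Htr2a had r = 0.41 (permutation p = 0.00395, adjusted 0.0118) and rho = 0.30 (permutation p = 0.0389, adjusted 0.117). Without the 2 libraries farthest on Htr1a r was 0.35, but without controls 1 to 7 and OPFR libraries 31 to 35 it was 0.04, so this relation rested on those libraries. Such values were common with both genes of this pair, with 2017 and 1469 of 17134 other genes above r = 0.5 with Htr1a and Htr2a. The other 4 pairs had r between -0.01 and 0.16, with adjusted permutation p from 0.443 to 0.934. The related receptor genes Htr2a and Htr2c were among them, at r = -0.01. All values of a library share its depth and scaling. Deviations of Htr1a and Slc6a4 had r = -0.40 and r = -0.34 with the log2 library size, whose part in the relation between them was not tested.

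Other genes were compared with each member by their deviations. Of 17134 other genes tested, 86 had deviations that correlated with those of Htr2c at r above 0.8, against 43 for Htr1a, 4 for Htr2a and 0 for Slc6a4. At r above 0.5 the order was another, with 2017 genes for Htr1a, 1469 for Htr2a, 650 for Htr2c and 153 for Slc6a4. The gene most like Htr2c was ENSRNOG00000024061, at r = 0.98 over 47 libraries, rho = 0.97, and r = 0.97 without OPFR male 4, the lowest library. That gene ranged from 4.14 CPM in OPFR male 4 to 72.3 CPM, and Htr2c from 4.48 to 34.8 CPM. Without OPFR male 4, 60 of the 86 genes were still above 0.8. The genes most like the other members were ENSRNOG00000017829 for Htr1a (r = 0.88), ENSRNOG00000007682 for Htr2a (r = 0.84) and ENSRNOG00000013140 for Slc6a4 (r = 0.64). Without controls 1 to 7 and OPFR libraries 31 to 35 these were 0.76, 0.78 and 0.53, and that of Htr2c was 0.97. Each is the highest of 17134 values, so these are descriptions without a test.

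**Figure D4:**
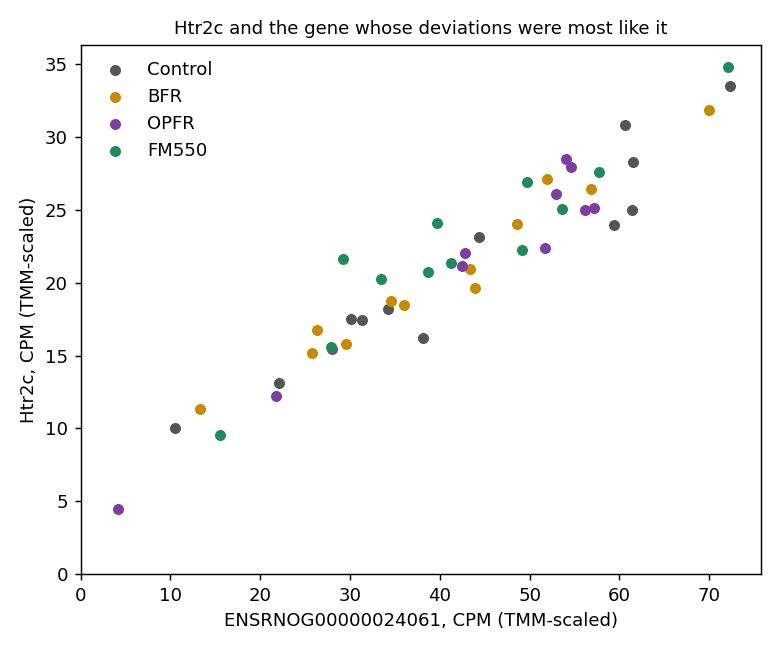
Htr2c (vertical axis) against ENSRNOG00000024061 (horizontal axis), both in CPM on TMM-scaled library sizes, 1 point per library, coloured by treatment. The libraries of all treatments lie along 1 band, from OPFR male 4 (4.48 and 4.14 CPM) up to 34.8 CPM of Htr2c.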

How the data were processed

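The deposited values were counts of reads per Ensembl gene ID, whole numbers in 1 table for 47 libraries, as the authors made them. Libraries were directional and made from poly(A) RNA, per the labels' protocols. The submitters' processing notes name FastQC, featureCounts and DESeq2. Aligner, build and strand setting: not given in the sources used here. Reads shared with overlapping or antisense genes therefore cannot be told apart. Entries that name no gene (15) held no value. Each column was matched to the sample title with its number.

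Tests on the counts used edgeR 4.0.16 (R 4.3.3): filterByExpr over the 8 groups (minimum count 10, minimum total 15), TMM (factors 0.95 to 1.10), 1 quasi-likelihood model with a mean per group, and two-sided contrasts. Controls 1 to 7 were set against the other 5 in a model of the 12 controls with sex. Standard errors come from the F statistic. The procedure was tested on simulated data. Deviations used log2 CPM with a prior count of 2, and permutation tests 100000 resamples.

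Alternatives were DESeq2 1.42.0, limma 3.58.1 voom with sample weights, RLE scaling, no filter, only the groups compared, a term for or omission of controls 1 to 7, omission of OPFR females 4 and 5 or of OPFR libraries 31 to 35, and omission of each library. Members and lists were chosen with earlier results of these data known. Gene names follow the list used for the choice. Neither the count table nor the reference gene table (assembly GRCr8, matching 0 IDs) pairs IDs with names, so other serotonin genes and cell type markers were not tested. The genes named are the 4 members and, for each, the 1 gene with the highest r.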

Additional observations from a re-analysis of the deposited data

Results flagged for a closer look

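The 8 groups of 5 or 6 libraries were searched, for each of the 4 genes, for a library at the end of the range whose gap to its nearest neighbour was a large part of that range by Dixon's criterion. In 32 sets of values 6 such libraries were found. Chance gives about 1 in 20 sets where values are normal and sets independent. The sets here share libraries between genes and normality was not tested, so 6 in 32 cannot be read as an excess.

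Htr2c was at 4.48 CPM in OPFR male 4, against 22.0 CPM in the next lowest OPFR male. The gene most like Htr2c was also lowest there, but it was chosen by likeness over libraries that include this one. Htr2c was at 9.58 CPM in FM550 female 3, where the next lowest was 21.3 CPM. Slc6a4 was at 2.42 CPM in Control female 1 and 3.18 CPM in OPFR male 1, where the nearest values were 1.37 and 1.58 CPM. Slc6a4 was at 0.836 CPM in FM550 male 4, below 1.59 CPM in the next. Htr1a was at 4.37 CPM in FM550 male 6, above 3.52 CPM in the next.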

How the results depend on the processing

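Of 1956 recomputed values for 68 results, 1951 stayed on the same side of the threshold. A sign change was taken as a changed result only where a value passed the threshold, since no direction was called otherwise. Signs of uncalled values changed in 134 cases. Htr2a between controls 1 to 7 and the other controls passed it in DESeq2 (-0.22) and limma voom (-0.21), and ranged from -0.29 to -0.18 when 1 library was left out. Slc6a4 in OPFR against BFR ranged from -0.85 to -0.47 when 1 library was left out.

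The number of all genes called moved far more. Over the alternatives other than leaving out 1 library, it ran from 0 to 3933 for BFR males (1705 in the pooled fit), 0 to 3559 for OPFR males (2143), 0 to 3616 for FM550 males (2022), 50 to 798 for OPFR females (531), 0 to 2 for BFR females (0) and 0 to 22 for FM550 females (0). Over both sexes it ran from 0 to 3409 for BFR (2123), 4 to 3755 for OPFR (3311), 0 to 2408 for FM550 (1393), 144 to 2396 for OPFR against BFR (814), 0 to 202 for FM550 against OPFR (1) and 12 to 328 for FM550 against BFR (35). Between the sets of controls it ran from 1999 to 4445 (2597), and between the sexes from 18 to 28 (22). For interactions with sex it reached 3, 206 and 353 for BFR, OPFR and FM550 (0 each).

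No paired analysis was possible because the sources used here do not say which samples share a litter. Without controls 1 to 7, 1 control male remains, assumed to vary like the other groups. At the median read number, counting alone gives a coefficient of variation of 10.7% for Slc6a4, against a biological one of 0.432.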
